A study of Homo sapiens with 18 samples.

Results

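The IL6 cytokine family was followed at the RNA level through 9 genes taken by name from a table of 58721 gene identifiers. They are the ligands IL6, IL11, LIF and CLCF1 and the receptor chains IL6ST, IL6R, IL11RA, LIFR and OSMR. All 9 had counts in at least 1 library and passed the filter on low counts. The cells were A375, an established human melanoma line from ATCC, grown in DMEM with serum and sequenced as poly(A)-selected stranded libraries. There were 6 groups of 3 libraries: TADA2B knockout with guide 1 (TADA2Bsg1), TADA2B knockout with guide 2 (TADA2Bsg2), each knockout line with SOX10 overexpression (SOX10OE), control cells with SOX10 overexpression, and control cells. Both control groups carried a guide against GFP (GFPsg), so cells of every group carried a guide. TADA2B encodes an adaptor subunit of the SAGA histone-modifying complex, and SOX10 is a transcription factor needed by neural crest cells and melanocytes. The labels do not say whether a line is 1 clone or a pool, nor what drives the SOX10 transgene.

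Cytokines of this family signal through receptor complexes that contain gp130, the product of IL6ST. IL6 and IL11 first bind their own receptor chains, IL6R and IL11RA, and the complex then engages gp130. LIF joins gp130 to LIFR, oncostatin M joins it to OSMR or LIFR, and CLCF1 acts through the CNTF receptor, LIFR and gp130. JAK kinases bound to these chains phosphorylate STAT3, whose targets include the feedback inhibitor SOCS3. Both tumour cells and their stroma are known sources of such cytokines.

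The start regions of IL11, OSMR and IL6 are shown here because in knockout against control IL11 had the largest fold change of the family and OSMR the largest of the receptors, and IL6 was the member at the edge of detection. RefSeq windows (GRCh38.p14) were found for 7 of the 9 genes. The 250 bases before the annotated start are printed 5′ to 3′ on the gene's strand, as chr19:55370464-55370713 on the minus strand for IL11, chr5:38845762-38846011 on the plus strand for OSMR and chr7:22726950-22727199 on the plus strand for IL6. Both strands were searched for NF-kB (GGG, any 5 bases, CC), STAT TTCNNNGAA, AP-1 TGANTCA, CRE TGACGTCA, SOX ACAAAG, TEAD GGAATG and E-box CANNTG. Capitals mark matches to the NF-kB, STAT, AP-1, SOX and TEAD letters.
IL11: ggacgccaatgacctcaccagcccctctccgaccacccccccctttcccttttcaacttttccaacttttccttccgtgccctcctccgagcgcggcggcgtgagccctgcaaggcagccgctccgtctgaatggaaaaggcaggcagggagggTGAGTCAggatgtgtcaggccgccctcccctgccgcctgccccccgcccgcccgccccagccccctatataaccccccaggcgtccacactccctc
OSMR: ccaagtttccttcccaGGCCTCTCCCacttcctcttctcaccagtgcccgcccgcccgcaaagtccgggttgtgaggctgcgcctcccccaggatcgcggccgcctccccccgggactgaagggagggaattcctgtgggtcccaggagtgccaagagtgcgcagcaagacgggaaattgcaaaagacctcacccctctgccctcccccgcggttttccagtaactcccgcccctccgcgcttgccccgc
IL6: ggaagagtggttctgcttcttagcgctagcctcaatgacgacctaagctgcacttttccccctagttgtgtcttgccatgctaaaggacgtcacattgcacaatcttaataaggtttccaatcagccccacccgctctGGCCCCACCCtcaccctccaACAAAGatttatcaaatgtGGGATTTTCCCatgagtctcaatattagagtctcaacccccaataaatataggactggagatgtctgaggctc
The IL11 window held 1 match, to the AP-1 letters, from 96 to 90 bases before the start; 6.59% of the 34788 distinct windows of this length in the RefSeq table held such a match. In the OSMR window the capitals are 1 match to the NF-kB letters on the opposite strand, a pattern found in 54.4% of windows. The IL6 window held 3 matches to the NF-kB letters, a pair of which overlap in the run nearest the start, and 1 to the SOX letters, which 13.8% of windows held. It also held 1 match to the E-box letters, not marked by capitals, a pattern found in 61.8% of windows. No STAT match lay in these 3 windows, against 6.57% of all windows. These matches are descriptions of letters and were not tested for binding.

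Total counts ran from 58573910 to 79874237 per library, and mitochondrial genes took 0.732% to 1.46% of them. Levels are CPM, counts scaled to a common total with effective library sizes. TADA2B RNA averaged 26.0 ± 0.402 CPM in guide 1 knockout cells and 28.8 ± 1.37 CPM in guide 2 knockout cells, against 32.5 ± 0.318 CPM in control cells (SD, n = 3 each). The level of this RNA does not by itself check an edit of the gene. SOX10 averaged 83.6 ± 3.02 and 43.4 ± 3.16 CPM in the guide 1 and guide 2 knockouts, 291 ± 13.9 and 246 ± 5.44 CPM in those knockouts with SOX10, 452 ± 1.57 CPM in control cells with SOX10 and 354 ± 12.2 CPM in control cells. Reads of the transgene and of the endogenous gene were not separated. The summed level of 7 melanoma and melanocyte markers ran from 169 to 177 CPM in guide 1 and 134 to 143 CPM in guide 2 knockout cells, against 396 to 421 CPM in control cells. Of the 6 tested, 4 were lower and 2 higher in knockout cells, beside 29.5% and 28.6% of all genes tested. MITF, a regulator of melanocyte genes, was higher, at 84.3 ± 2.01 CPM in guide 1 and 92.1 ± 2.96 CPM in guide 2 knockout cells, against 39.7 ± 0.540 CPM in control cells (SD, n = 3 each). In control cells SOX10 made up most of the sum, and S100B averaged 14.2 ± 0.210 CPM. The pigment genes PMEL, MLANA and TYR were low there, at 0.412 ± 0.0601, 1.16 ± 0.0861 and 0.0150 ± 2.93e-04 CPM (SD, n = 3). FCGR3A had no count in any library, and the 8 leukocyte markers together had 9.46 to 10.3 CPM in guide 1 and 6.39 to 7.57 CPM in guide 2 knockout cells, against 8.48 to 9.56 CPM in control cells.

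TADA2B knockout was set against control to ask how the loss of this subunit moved the family. IL11 stood out: its RNA was 6.33-fold higher in knockout cells, taken as the mean of both guides. OSMR was 2.25-fold higher and IL6R 1.90-fold higher, LIFR and LIF rose less, and CLCF1 fell. Among the 9 genes 6 were higher, 2 were lower and 1 was not called at an adjusted p under 0.05 (edgeR quasi-likelihood F test, Benjamini-Hochberg over 21060 genes). Over all genes tested 58.1% were called, 28.6% higher and 29.5% lower as shares of genes tested, so a call alone sets no member apart. The median log2 fold change of the 9 genes was 0.40, against -0.009 over all genes. In bulk RNA, a change in the number of cells that express a gene and a change in RNA per cell cannot be told apart.

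IL11, a cytokine best known for roles in fibrosis, bone and the placenta (chr19:55364389-55370463, minus strand, hg38), had 139, 146 and 153 CPM in the guide 1 knockout libraries and 189, 193 and 197 CPM in the guide 2 knockout libraries, against 26.0, 27.0 and 26.6 CPM in control libraries. Every knockout library lay far above every control library, and the guides did not overlap each other. The log2 fold change was 2.46 for guide 1 and 2.86 for guide 2, with 2.66 for their mean (SE 0.039, adjusted p = 4.55e-39, edgeR). LIF, the leukaemia inhibitory factor that keeps mouse embryonic stem cells undifferentiated (chr22:30240447-30246851, minus strand), had 32.6, 30.2 and 32.0 CPM in the guide 1 knockout and 30.0, 27.4 and 27.9 CPM in the guide 2 knockout, against 26.7, 26.5 and 27.8 CPM in control. The guide 1 libraries lay above the control range and the guide 2 libraries overlapped it. LIF was called higher for the mean of guides (log2 fold change 0.15, SE 0.046, adjusted p = 0.0045, edgeR) and for guide 1 (0.23, adjusted p = 3.04e-04). It was not called for guide 2 (0.074, 95% interval -0.032 to 0.18, adjusted p = 0.237), though with library-size scaling it was (0.24). The LIF change for the mean of guides is close in size to the shift of all genes under library-size scaling, given below. It ran from 0.15 to 0.31 over 7 other settings and was called in each.

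CLCF1, a secreted cytokine (chr11:67364168-67374177, minus strand), was the ligand that fell, with 9.66, 10.0 and 10.7 CPM in the guide 1 knockout and 9.56, 8.20 and 9.07 CPM in the guide 2 knockout, against 12.7, 12.7 and 14.2 CPM in control. No knockout library reached the lowest control library (log2 fold change -0.47, SE 0.067, adjusted p = 1.01e-07, edgeR). IL6 itself (chr7:22725884-22732002, plus strand) was near the limit of detection: its raw counts were 14, 8 and 23 in the guide 1 knockout and 23, 22 and 25 in the guide 2 knockout, against 4, 13 and 1 in control. All guide 2 libraries lay above the control range, whereas the guide 1 libraries overlapped it. For the mean of guides IL6 passed the test (log2 fold change 1.43, SE 0.58, adjusted p = 0.0336, edgeR), but without control replicate 1, control replicate 3 or guide 1 replicate 3 it did not (adjusted p = 0.137, 0.199 and 0.088). Guide 1 alone did not pass (adjusted p = 0.149). Guide 2 alone passed (1.72, adjusted p = 0.0191), but not without control replicate 1 or 3 (adjusted p = 0.0837 and 0.114, edgeR). Without control replicate 2, the control library with most counts, the log2 fold change was 2.64 for the mean of guides and 2.35 for guide 1 (adjusted p = 0.019), beside 1.13 for guide 1 with it.

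**Figure D1:**
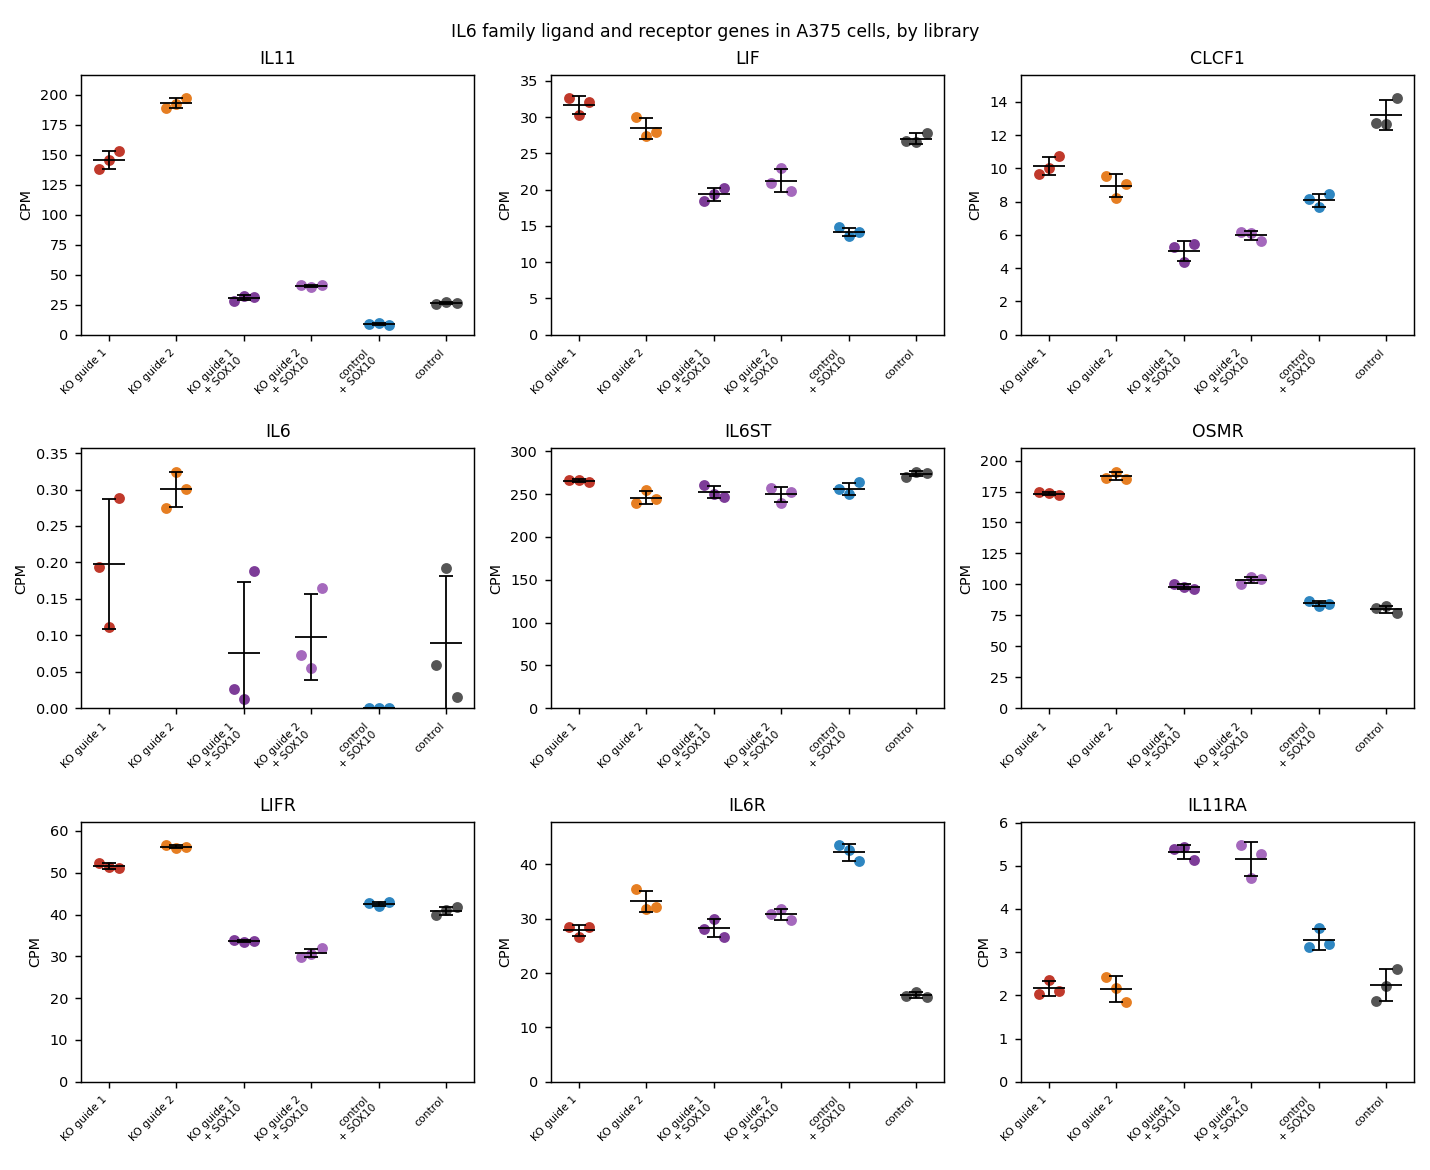
CPM on effective library sizes (y axis, linear from 0, own scale in each panel) of the 9 genes in the 6 groups (x axis); points are libraries, the long bar is the mean and the error bar the SD over 3 libraries, drawn down to 0 at most. IL11 averaged 146 ± 7.42 and 193 ± 4.02 CPM in the guide 1 and guide 2 knockouts and 26.5 ± 0.532 CPM in control cells, and IL6 was at 0 in control cells with SOX10.

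Of the receptor genes, OSMR, the signalling chain for oncostatin M (chr5:38845858-38945596, plus strand), rose most in knockout cells, with 174, 173 and 172 CPM for guide 1 and 186, 191 and 185 CPM for guide 2, against 81.1, 82.2 and 76.6 CPM in control. The groups were far apart and the spread within them was small (log2 fold change 1.17, SE 0.028, adjusted p = 4.10e-32, edgeR). IL6R, the chain that binds IL6 and is also shed as a soluble receptor (chr1:154405193-154469450, plus strand), had 28.4, 26.6 and 28.4 CPM for guide 1 and 35.5, 31.9 and 32.1 CPM for guide 2, against 15.7, 16.6 and 15.6 CPM in control (log2 fold change 0.93, SE 0.046, adjusted p = 8.89e-21, edgeR). LIFR, which pairs with gp130 for LIF and CLCF1 (chr5:38474963-38608354, minus strand), had 52.3, 51.3 and 51.1 CPM for guide 1 and 56.6, 56.0 and 56.1 CPM for guide 2, against 39.9, 41.1 and 41.8 CPM in control (log2 fold change 0.40, SE 0.032, adjusted p = 6.22e-14, edgeR). For each of these 3 chains every knockout library was above every control library.

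IL6ST, the gp130 chain used by every ligand above (chr5:55935095-55994993, minus strand), was nearly level, with 267, 266 and 264 CPM in the guide 1 knockout and 239.6, 254 and 244 CPM in the guide 2 knockout, against 271, 276 and 275 CPM in control. It was called slightly lower (log2 fold change -0.099, SE 0.025, adjusted p = 7.78e-04, edgeR). With library-size scaling, which moved the median of all genes up by 0.156 on the log2 scale, it was called slightly higher (0.057, adjusted p = 0.046), so its direction depended on the scaling. IL11RA, which binds IL11 (chr9:34650702-34661892, plus strand), was low, with 2.04, 2.35 and 2.10 CPM for guide 1 and 2.43, 2.17 and 1.84 CPM for guide 2, against 1.88, 2.22 and 2.61 CPM in control. The 3 groups overlapped and no change was called (-0.054, 95% interval -0.28 to 0.17, adjusted p = 0.706, edgeR). IL11RA shares 334 exonic bases on the same strand with GALT and 410 with ENSG00000258728, which had 0 counts in every library. Reads there may be split or dropped by the counting. GALT itself was higher in knockout cells (log2 fold change 0.40, adjusted p = 3.45e-05, edgeR), and its part in the IL11RA value was not tested. CLCF1 shares 61 exonic bases on the same strand with ENSG00000256514, also at 0 in every library.

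By guide, 5 of the 9 genes were higher and 1 was lower with guide 1, where 52.6% of all genes were called, 26.2% higher and 26.4% lower. With guide 2, 5 were higher and 2 lower, where 55.9% of all genes were called, 27.9% higher and 28.1% lower. The fibroblast markers moved in the same comparison: their sum over 10 genes was 42.8 to 47.3 CPM in guide 1 and 49.4 to 52.5 CPM in guide 2 knockout cells, against 6.96 to 9.33 CPM in control cells. In that list 8 of the 9 genes tested were higher in knockout cells, and none was at 0 throughout a group. The sum over 9 epithelial markers was 363 to 379 CPM in guide 1 and 379 to 409 CPM in guide 2 knockout cells, against 194 to 195 CPM in control cells, where CDH1 was at 0. Of the 7 epithelial markers tested 6 were higher and 1 lower. Over all genes tested 28.6% were higher and 29.5% lower for the mean of guides. The part of these markers in the cytokine and receptor changes was not tested.

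**Figure D2:**
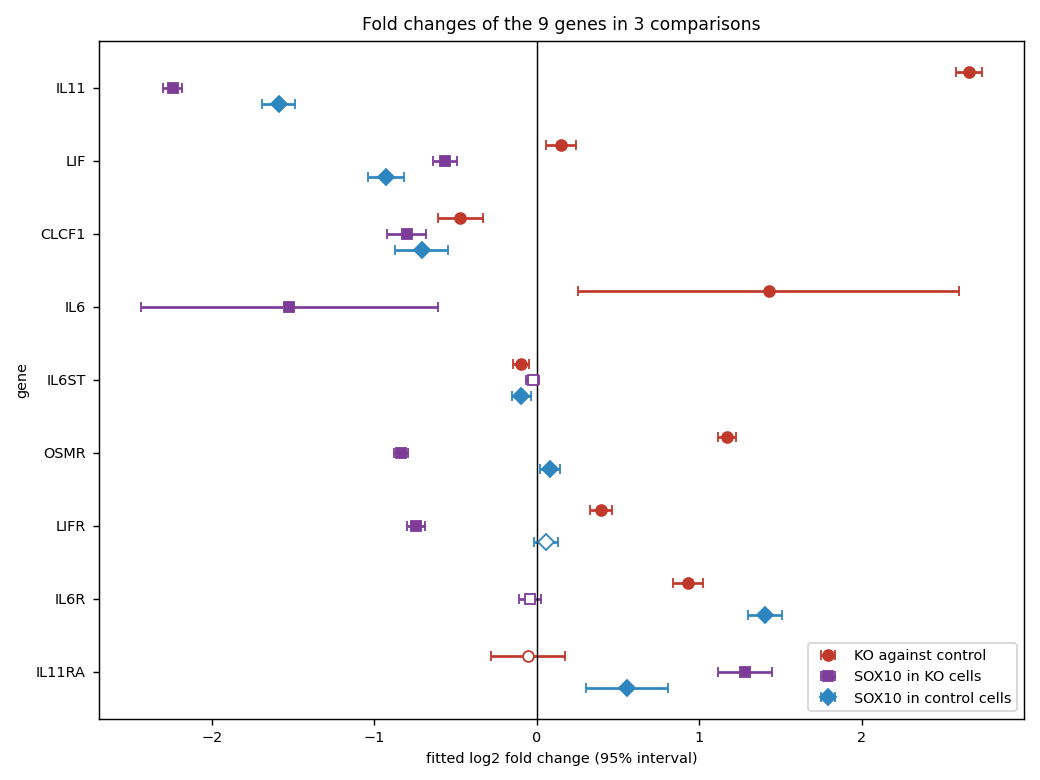
Fitted log2 fold change (x axis) with its 95% interval for the 9 genes (y axis) in 3 comparisons: knockout against control (mean of guides), SOX10 in knockout cells (mean of guides) and SOX10 in control cells. IL6 is not drawn for SOX10 in control cells, where the group with SOX10 had no count; IL11 lies at 2.66, -2.24 and -1.59 in these 3 comparisons.

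SOX10 overexpression within knockout cells asks which of these changes move when SOX10 is raised again. All 4 ligands fell, as did LIFR and OSMR; IL11RA rose, and IL6R and IL6ST were not called. IL11 had 28.5, 32.3 and 31.7 CPM in guide 1 knockout cells with SOX10, against 139, 146 and 153 CPM without it. In the guide 2 line it had 41.4, 40.1 and 41.5 CPM with SOX10, against 189, 193 and 197 CPM without it. The groups were far apart in both lines, and IL11 was 4.72-fold lower with SOX10 (log2 fold change -2.24, SE 0.029, adjusted p = 6.33e-41, edgeR, mean of guides). Of the 9 genes 6 were lower and 1 was higher, where 56.2% of all genes were called, 28.1% lower and 28.1% higher. By line, 6 were lower and 1 was higher with guide 1, beside 21.7% and 22% of all genes (43.7% in either direction). The guide 1 count includes IL6ST (-0.075, adjusted p = 0.0334), which did not pass in 11 of 18 fits that each left out 1 library, with adjusted p up to 0.217. With guide 2 the counts were 6 and 1, beside 24% and 24.6% (48.6% in either direction). The median log2 fold change of the 9 was -0.74, against 6.51e-04 over all genes.

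LIF had 18.5, 19.4 and 20.3 CPM in guide 1 knockout cells with SOX10 and 20.8, 22.9 and 19.8 CPM in guide 2 knockout cells with SOX10, below every library of the same lines without SOX10 (log2 fold change -0.56, SE 0.038, adjusted p = 1.17e-16, edgeR). CLCF1 had 5.25, 4.34 and 5.46 CPM in guide 1 knockout cells with SOX10 and 6.16, 6.10 and 5.64 CPM in guide 2 knockout cells with SOX10, its lowest levels in the series (log2 fold change -0.80, SE 0.059, adjusted p = 3.36e-15, edgeR). IL6 had raw counts of 2, 1 and 14 in guide 1 and 6, 4 and 10 in guide 2 knockout cells with SOX10, against 14, 8 and 23 and 23, 22 and 25 in the guide 1 and guide 2 knockouts without it (log2 fold change -1.52, SE 0.45, adjusted p = 0.00419, edgeR, mean of guides). Replicate 3 of guide 1 with SOX10, the library with 14 counts, weighed on this value, which was -2.44 without it. For that line the log2 fold change was -1.39 (adjusted p = 0.087) with it and -3.24 (adjusted p = 0.00221) without it. For guide 2 the IL6 value of -1.65 (adjusted p = 0.0252) no longer passed when either of replicates 2 and 3 without SOX10, or 1 and 2 with SOX10, was left out.

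Among the receptors, OSMR had 100.5, 98.1 and 96.2 CPM in guide 1 and 101, 106 and 104 CPM in guide 2 knockout cells with SOX10, well under both knockout lines without it and still above the highest control library, which held 82.2 CPM (log2 fold change -0.84, SE 0.021, adjusted p = 6.00e-31, edgeR). LIFR had 33.9, 33.5 and 33.6 CPM in guide 1 and 30.0, 30.5 and 32.0 CPM in guide 2 knockout cells with SOX10, below knockout cells without SOX10 and below control cells (log2 fold change -0.74, SE 0.026, adjusted p = 6.55e-26, edgeR). IL11RA had 5.38, 5.44 and 5.12 CPM in guide 1 and 5.47, 4.72 and 5.28 CPM in guide 2 knockout cells with SOX10, its highest levels in the series and 2.43-fold above knockout cells without SOX10 (log2 fold change 1.28, SE 0.083, adjusted p = 5.05e-17, edgeR). Its exon-sharing neighbour GALT moved by 0.16 in the same comparison. IL6R had 28.2, 30.0 and 26.7 CPM in guide 1 and 30.9, 31.7 and 29.8 CPM in guide 2 knockout cells with SOX10 and no called change (-0.041, 95% interval -0.11 to 0.029, adjusted p = 0.325, edgeR). IL6ST, with 261, 249.8 and 247 CPM in guide 1 and 257, 240.1 and 253 CPM in guide 2 knockout cells with SOX10, had none for the mean of guides (-0.026, 95% interval -0.067 to 0.016, adjusted p = 0.301, edgeR). Of the fibroblast markers 7 of 9 tested fell with SOX10 in these lines and 2 rose, with a median log2 fold change of -0.88. LUM, the most abundant of them, rose (0.83), and the summed level stood at 49.9 to 51.6 CPM for guide 1 and 57.6 to 60.9 CPM for guide 2 with SOX10, against 42.8 to 47.3 CPM for guide 1 and 49.4 to 52.5 CPM for guide 2 without it. The sum over 5 endothelial markers was 29.8 to 31.7 CPM for guide 1 and 36.2 to 36.4 CPM for guide 2 with SOX10, against 2.29 to 2.42 CPM for guide 1 and 2.30 to 2.69 CPM for guide 2 without it. Of these 5, 3 rose and 2 fell, and KDR made up most of the sum with SOX10, at 27.7 ± 1.15 CPM for guide 1 and 33.1 ± 0.0627 CPM for guide 2 (SD, n = 3 each). The leukocyte markers summed to 18.4 to 19.6 CPM for guide 1 and 20.2 to 22 CPM for guide 2 with SOX10, against 9.46 to 10.3 CPM for guide 1 and 6.39 to 7.57 CPM for guide 2 without it, and CD3E and FCGR3A were at 0 in both lines with SOX10. Of the 5 leukocyte markers tested 2 rose and 2 fell, and LYZ made up most of the sum, at 18.8 ± 0.488 CPM for guide 1 and 20.8 ± 0.933 CPM for guide 2 with SOX10 (SD, n = 3 each). Of the epithelial markers 5 of 7 fell and 2 rose. These marker counts are to be read beside 28.1% of all genes lower and 28.1% higher in this comparison. The part of these markers in these results was not tested.

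SOX10 overexpression in control cells asks the same question without the knockout, from a higher level of SOX10 RNA and with a smaller rise. The 4 ligands fell here too. IL11 had 8.66, 9.44 and 8.32 CPM in control cells with SOX10, against 26.0, 27.0 and 26.6 CPM in control cells (log2 fold change -1.59, SE 0.051, adjusted p = 2.46e-26, edgeR). LIF had 14.8, 13.7 and 14.1 CPM with SOX10, against 26.7, 26.5 and 27.8 CPM in control cells (log2 fold change -0.93, SE 0.056, adjusted p = 1.29e-17, edgeR). CLCF1 had 8.13, 7.67 and 8.46 CPM with SOX10, against 12.7, 12.7 and 14.2 CPM in control cells (log2 fold change -0.71, SE 0.08, adjusted p = 1.25e-09, edgeR). For each of these 3 ligands the groups did not overlap. IL6 had no count in any of the 3 control libraries with SOX10, against 18 counts over the 3 control libraries. With the floor of 3 counts over the group it was at least 6.49-fold lower (adjusted p = 0.00381, edgeR). The call was lost without control replicate 2, the library with 13 of the 18 counts (adjusted p = 0.0588), and the bound was then 2.72-fold.

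The receptors moved otherwise in control cells. IL6R had 43.5, 42.6 and 40.5 CPM with SOX10, against 15.7, 16.6 and 15.6 CPM in control cells, its highest level in the series and 2.65-fold above control (log2 fold change 1.40, SE 0.051, adjusted p = 9.99e-25, edgeR). IL11RA had 3.11, 3.56 and 3.19 CPM with SOX10, against 1.88, 2.22 and 2.61 CPM in control cells (log2 fold change 0.56, SE 0.12, adjusted p = 3.45e-04, edgeR), and GALT moved by 0.36. OSMR had 86.8, 82.6 and 84.5 CPM with SOX10, against 81.1, 82.2 and 76.6 CPM in control cells, a small rise (log2 fold change 0.082, SE 0.031, adjusted p = 0.039, edgeR). It did not pass without control replicate 3 or without replicate 1 or 3 of the SOX10 group (adjusted p = 0.278, 0.183 and 0.0754). IL6ST had 256, 249.7 and 264 CPM with SOX10, against 271, 276 and 275 CPM in control cells (log2 fold change -0.094, SE 0.029, adjusted p = 0.00914, edgeR). It did not pass without replicate 2 of the SOX10 group (adjusted p = 0.0799) or with no filter on low counts (adjusted p = 0.0721). LIFR had 42.8, 42.0 and 43.0 CPM with SOX10, against 39.9, 41.1 and 41.8 CPM in control cells, and was not called (0.057, 95% interval -0.019 to 0.13, adjusted p = 0.263, edgeR). In all, 3 of the 9 genes were higher and 5 lower, where 34.4% of all genes were called, 17.3% higher and 17.2% lower. The median log2 fold change was -0.094, also with IL6 at its bound, against -0.00781 over all genes. Fibroblast markers summed to 13.8 to 14.5 CPM with SOX10, against 6.96 to 9.33 CPM in control cells, and endothelial markers to 10.9 to 11.5 CPM with SOX10, against 3.70 to 4.74 CPM in control cells. Of the fibroblast markers 4 of 9 tested were higher and 1 lower. Of the 5 endothelial markers 1, KDR, was higher and 2 were lower. Epithelial markers summed to 166 to 168 CPM with SOX10, against 194 to 195 CPM in control cells, with 1 of 7 higher and 5 lower. Their part was not tested.

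The interaction term tested whether the response to SOX10 overexpression differed between knockout and control cells. SOX10 RNA was not matched: by the levels given above, it rose more in both knockout lines than in control cells. A difference in the rise of SOX10 and a difference in the response to it cannot be told apart here. The term was called for 6 of the 9 genes, 2 higher and 4 lower, where 33.3% of all genes were called, 18.1% higher and 15.1% lower. Among the called genes the difference was largest for IL6R, whose log2 change with SOX10 was -0.041 in knockout cells, against 1.40 in control cells, an interaction of -1.45 (SE 0.062, adjusted p = 4.04e-22, edgeR). OSMR and LIFR fell with SOX10 in knockout cells, whereas their fitted changes in control cells were slightly above 0 (-0.92, adjusted p = 1.14e-22, and -0.80, adjusted p = 4.91e-18, edgeR). The fall of IL11 was deeper in knockout cells (-0.65, adjusted p = 9.67e-12) and that of LIF shallower (0.36, adjusted p = 3.13e-05), and IL11RA rose more in knockout cells (0.72, adjusted p = 1.52e-04, edgeR). CLCF1 and IL6ST were not called (-0.092, 95% interval -0.29 to 0.11, adjusted p = 0.537; 0.069, 95% interval -0.0032 to 0.14, adjusted p = 0.142, edgeR). The IL6ST term passed without replicate 2 of the guide 2 knockout (adjusted p = 0.0454). IL6 was not called either (fitted interaction 4.22, 95% interval 0.57 to 7.88, adjusted p = 0.0696). It passed without control replicate 3 or replicate 2 of guide 1 with SOX10 (adjusted p = 0.0316 and 0.0428). Without control replicate 2 the IL6 term was 3.02 (adjusted p = 0.231, edgeR). Leaving out replicate 3 of guide 1 with SOX10 gave 3.30 (adjusted p = 0.138, edgeR), so the value rested on single libraries. The IL6 term includes the group without counts, and it passed with DESeq2 and with no filter on low counts (adjusted p = 0.0429 and 0.0335).

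Knockout cells with SOX10 were then set against control cells, which shows where the double condition ended. By the levels given above, SOX10 RNA in both knockout lines with SOX10 was still lower than in control cells. That lower level and the knockout cannot be told apart here. IL11 stayed 1.34-fold higher than control (log2 fold change 0.42, SE 0.039, adjusted p = 1.83e-12, edgeR). Its guide 1 libraries with SOX10 ran from 28.5 CPM and its guide 2 libraries from 40.1 CPM, above the highest control library at 27.0 CPM. OSMR (0.33, adjusted p = 5.85e-14), IL6R (0.89, adjusted p = 5.41e-20) and IL11RA (1.23, adjusted p = 4.13e-13) were higher as well. LIF (-0.41, adjusted p = 3.03e-10), CLCF1 (-1.27, adjusted p = 1.92e-19) and LIFR (-0.35, adjusted p = 3.14e-12) were lower. So was IL6ST, by a margin that flipped to 0.022 with library-size scaling (-0.12, adjusted p = 4.17e-05, edgeR). IL6 was not called (-0.097, 95% interval -1.40 to 1.20, adjusted p = 0.912), and its value rested on single libraries. It was 1.12 without control replicate 2 and -1.02 without replicate 3 of guide 1 with SOX10. That made 4 of 9 higher and 4 lower, where 57.9% of all genes were called, 30% higher and 27.9% lower. This comparison shares its control libraries with the knockout and SOX10 comparisons above.

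Within SOX10-overexpressing cells, knockout still set IL11 4.03-fold above control with SOX10 (log2 fold change 2.01, SE 0.046, adjusted p = 2.54e-32, edgeR). LIF (0.51, adjusted p = 7.64e-12), IL11RA (0.67, adjusted p = 2.34e-07) and OSMR (0.25, adjusted p = 1.15e-10) were higher too. IL6, at 17 counts over the guide 1 libraries (14 of them in replicate 3) and 20 over the guide 2 libraries with SOX10 and none in control with SOX10, was at least 5.35-fold and 6.66-fold higher for guides 1 and 2 (adjusted p = 0.00139 for their mean, edgeR). Without replicate 3 the guide 1 libraries with SOX10 hold 3 counts, which equals the floor, so the guide 1 bound rests on that library. The guide 2 bound ran from 4.63-fold without replicate 3 to 8.05-fold without replicate 2 of that group. CLCF1 (-0.56, adjusted p = 1.15e-08), LIFR (-0.40, adjusted p = 3.38e-14) and IL6R (-0.52, adjusted p = 3.45e-14) were lower. IL6ST was not called (-0.03, 95% interval -0.081 to 0.021, adjusted p = 0.322), and with library-size scaling it turned to 0.11 (adjusted p = 1.52e-04, edgeR). The count was 5 higher and 3 lower, where 55% of all genes were called, 28.2% higher and 26.7% lower. SOX10 RNA was lower in both knockout lines with SOX10 than in control cells with SOX10, which cannot be told apart from the knockout here. IL6R and LIFR were thus lower with knockout when SOX10 was overexpressed and higher with knockout when it was not, and the interaction tests above are the tests of those differences. Epithelial markers summed to 314 to 344 CPM in guide 1 and 363 to 374 CPM in guide 2 knockout cells with SOX10, against 166 to 168 CPM in control cells with SOX10. In this comparison 7 of 7 epithelial, 4 of 5 endothelial and 5 of 9 fibroblast markers were higher, and 2 fibroblast markers were lower. Their part was not tested.

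The knockout lines differed from each other at several of these genes. Guide 2 cells exceeded guide 1 cells in IL11 (log2 fold change 0.40, SE 0.037, adjusted p = 4.01e-11, edgeR), IL6R (0.25, adjusted p = 2.41e-04), LIFR (0.13, adjusted p = 0.0192) and OSMR (0.11, adjusted p = 0.00925). They were lower in IL6ST (-0.11, adjusted p = 0.00759). The LIFR difference did not pass when replicate 2 or 3 of guide 1, or replicate 1 or 3 of guide 2, was left out (adjusted p up to 0.0809). The IL6ST difference did not pass without replicate 1 of guide 2 (adjusted p = 0.0645). LIF was not called (-0.15, adjusted p = 0.0568), but passed as lower in guide 2 with DESeq2 and with genes of a mean CPM of at least 1 (adjusted p = 0.0349 and 0.0439). LIF passed as well when replicate 2 of guide 1, replicate 1 of guide 2, or replicate 2 or 3 of guide 2 with SOX10 was left out (adjusted p = 0.0465, 0.0236, 0.0463 and 0.0496). CLCF1 (-0.18, adjusted p = 0.189), IL11RA (-0.012, adjusted p = 0.981) and IL6 (0.58, adjusted p = 0.65) were not called either. Here 4 of 9 genes were higher in guide 2 and 1 was lower, where 8.74% of all genes were called, 2.65% higher and 6.09% lower.

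Levels were compared between genes only per kilobase of annotated exon. In the knockouts IL11 was the most abundant member, at 61.5 ± 3.13 CPM per kb with guide 1 and 81.5 ± 1.69 CPM per kb with guide 2 (SD, n = 3 each). OSMR stood beside IL6ST there, at 28.2 ± 0.193 CPM per kb against 29.3 ± 0.150 for IL6ST in guide 1 cells. In guide 2 cells OSMR was at 30.5 ± 0.508 CPM per kb, against 27.1 ± 0.833 for IL6ST. In control cells IL6ST came first, at 30.2 ± 0.322 CPM per kb, followed by OSMR at 13.0 ± 0.482 and IL11 at 11.2 ± 0.224 CPM per kb. Below these in control cells came LIF at 6.81 ± 0.179 and CLCF1 at 6.69 ± 0.443 CPM per kb, whose libraries overlapped, then LIFR at 3.94 ± 0.0942 and IL6R at 2.65 ± 0.0879 CPM per kb. IL11RA was next to last in all 6 groups, at 1.59 ± 0.0503 CPM per kb in guide 1 knockout cells with SOX10 and 0.669 ± 0.110 CPM per kb in control cells. Its value per kb may be too low if reads in the exons it shares with same-strand genes were dropped. IL6 was last in all 6.

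With SOX10 the order changed. In control cells with SOX10, IL6R was in the third place at 7.01 ± 0.254 CPM per kb, and CLCF1 (4.09 ± 0.201) overlapped LIFR (4.09 ± 0.0502) while IL11 (3.72 ± 0.241) overlapped LIF (3.58 ± 0.142 CPM per kb). In guide 1 knockout cells with SOX10, OSMR (16.0 ± 0.349) was above IL11 (13.0 ± 0.861 CPM per kb). In guide 2 knockout cells with SOX10 the libraries of IL11 (17.3 ± 0.329) and OSMR (16.8 ± 0.451 CPM per kb) overlapped. Taking the 4 ligands together per kb, IL11 made up 82.3% ± 0.650 of their sum in guide 1 and 87.3% ± 0.778 in guide 2 knockout cells, 63.5% ± 1.98 and 67.3% ± 1.64 in those lines with SOX10, 32.6% ± 2.27 in control cells with SOX10 and 45.3% ± 1.12 in control cells (SD, n = 3 each). LIF and CLCF1 held 27.5% ± 0.358 and 27.0% ± 1.15 in control cells. The mean share of IL6 was at most 0.222% ± 0.136, in guide 2 knockout cells with SOX10. It was 0.212% ± 0.219 in control cells, so the highest share sets no group apart.

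**Figure D3:**
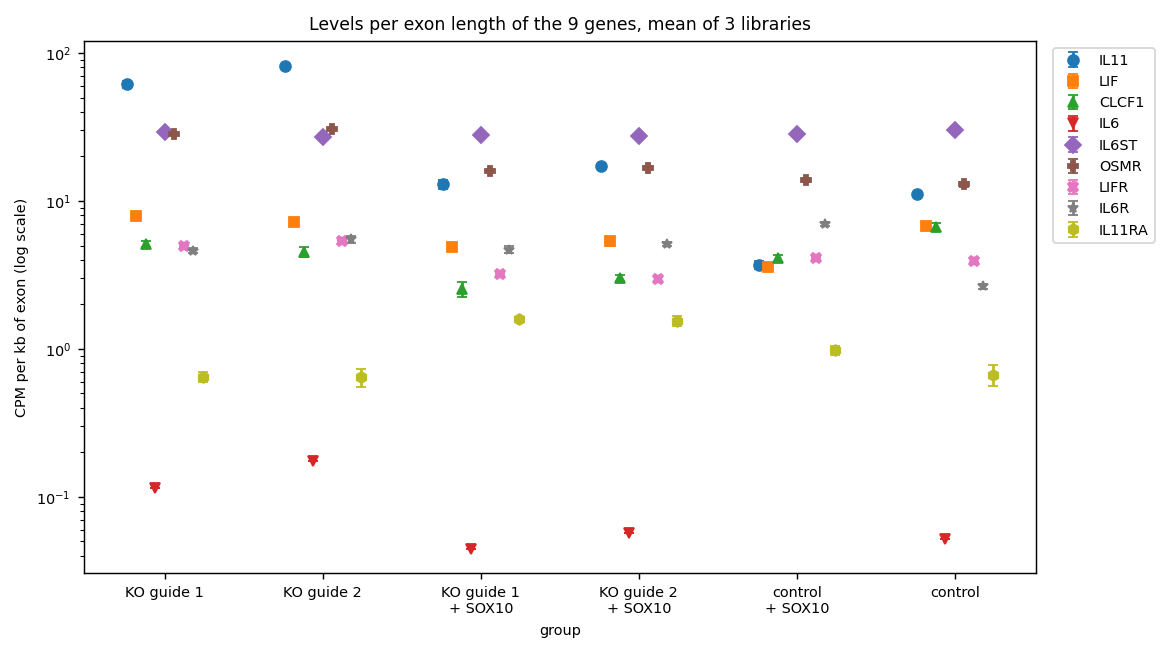
Mean level of each gene in CPM per kb of exon (y axis, log scale) in the 6 groups (x axis), with the SD over 3 libraries as error bars; symbols are shifted sideways to keep them apart. IL6 is drawn without error bars and is absent for control cells with SOX10, where it had no count; IL11 tops both knockout groups at 61.5 ± 3.13 and 81.5 ± 1.69 CPM per kb, and IL6ST tops the others.

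The wider pathway was read from a list of 49 further genes, of which 42 were tested. In knockout against control 18 were higher, 16 lower and 8 not called, with a median log2 fold change of 0.055. Over all genes tested 58.1% were called, 28.6% higher and 29.5% lower, and the counts by role below are to be read against these shares. With SOX10 in knockout cells 12 were higher and 19 lower, beside 28.1% and 28.1% of all genes. With SOX10 in control cells 12 were higher and 16 lower, beside 17.3% and 17.2% of all genes. Among the other ligands, OSM, IL27 and IL31 had no count in any library and CTF1 had at most 1, so the ligand of OSMR was not detected at this depth. EBI3, the subunit that IL27 shares with other heterodimeric cytokines, averaged 11.5 ± 0.0807 CPM in guide 1 and 13.8 ± 0.415 CPM in guide 2 knockout cells, against 0.845 ± 0.136 CPM in control cells (SD, n = 3 each; log2 fold change 3.89, SE 0.12, adjusted p = 1.35e-28, edgeR). It fell with SOX10 in knockout cells (-1.79, adjusted p = 1.52e-24). CNTF, a neurotrophic member of the family, was lower in knockout cells (-0.82, adjusted p = 3.18e-09, edgeR).

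Of the other receptors and partners, IL31RA, which pairs with OSMR to bind IL31, averaged 14.8 ± 0.327 CPM in guide 1 and 15.8 ± 0.567 CPM in guide 2 knockout cells, against 4.55 ± 0.542 CPM in control cells (SD, n = 3 each; log2 fold change 1.75, SE 0.066, adjusted p = 4.40e-25, edgeR). IL27RA was slightly lower (-0.11, adjusted p = 0.0427). The IL27RA change is smaller than the shift of all genes under library-size scaling. CNTFR was not tested. Between the sheddases that can release soluble IL6R, ADAM10 was lower in knockout cells (-0.69, adjusted p = 6.25e-27) and ADAM17 was not called (0.05, adjusted p = 0.148, edgeR). Of the JAK kinases and STAT factors 3 of 6 were higher and 2 lower, beside 28.6% and 29.5% of all genes. These were STAT5B (0.24), JAK2 (0.28) and STAT3 above control, and JAK1 (-0.18) and TYK2 (-0.16) below it. STAT3, the main transducer of the family and named here after its value was seen, changed by 0.10 (adjusted p = 4.85e-04, edgeR). The falls of JAK1 and TYK2 are close in size to the shift of all genes under library-size scaling, and the STAT3 change is smaller than that shift.

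Of the inhibitors and adaptors 4 of 12 were higher and 5 lower in knockout cells, beside 28.6% and 29.5% of all genes. CISH, a STAT5-induced suppressor, and LNX1, a ubiquitin ligase, were higher (1.38, adjusted p = 4.27e-10, and 0.84, adjusted p = 1.16e-10), while SOCS5 and the phosphatase PTPN11 were lower (-0.38, adjusted p = 3.68e-13, and -0.18, adjusted p = 1.96e-09, edgeR). The fall of PTPN11 is close in size to the shift of all genes under library-size scaling. SOCS3, the feedback inhibitor that binds gp130, was looked up after its value was known. It was not called in knockout cells (0.06, 95% interval -0.059 to 0.18, adjusted p = 0.396) and fell with SOX10 in knockout cells (-0.97, adjusted p = 2.40e-20) and in control cells (-0.71, adjusted p = 4.77e-11, edgeR). Of the genes known to respond to STAT3, 9 of 18 tested were higher and 6 lower in knockout cells, beside 28.6% and 29.5% of all genes, with a median log2 fold change of 0.14. The protease inhibitor A2M fell most (-3.64, adjusted p = 3.00e-42), the survival gene MCL1 (-0.45, adjusted p = 1.01e-21) and the angiogenic factor VEGFA (-0.58, adjusted p = 4.13e-19) fell less, and the survival gene BCL2L1 rose (0.57, adjusted p = 3.09e-18, edgeR). With SOX10 in knockout cells 4 of the 18 were higher and 10 lower, beside 28.1% and 28.1% of all genes.

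**Figure D4:**
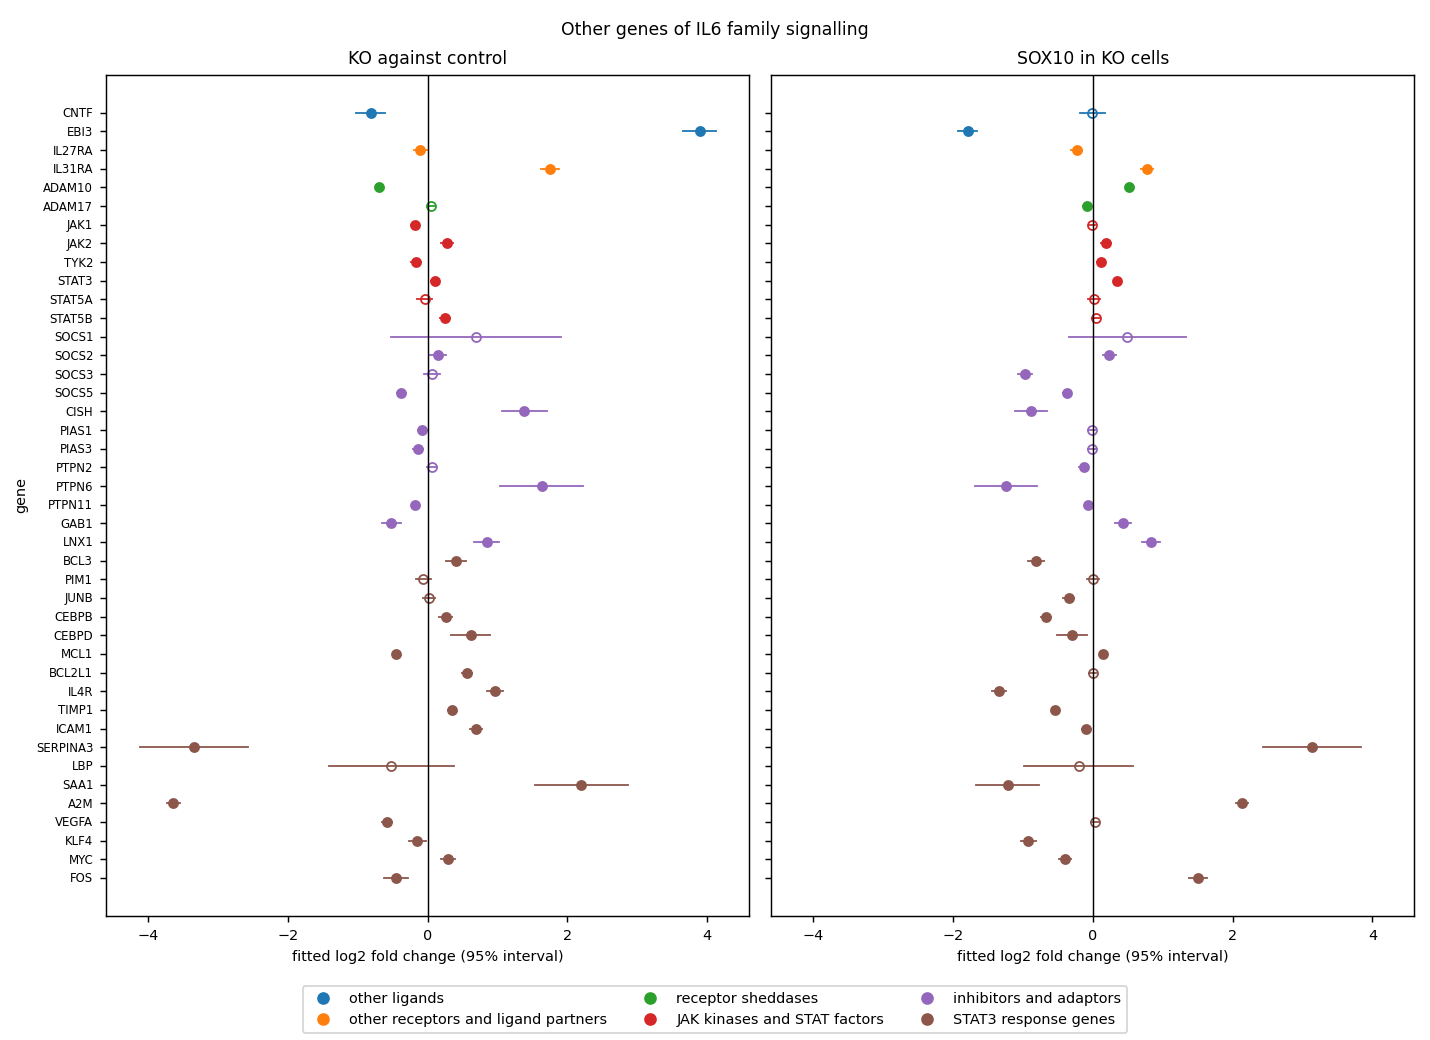
Fitted log2 fold change with 95% interval (x axes, same range) of the 42 tested genes of the pathway list, coloured by role (y axis), for knockout against control on the left and SOX10 in knockout cells on the right; filled points passed an adjusted p under 0.05. EBI3 lies at 3.89 on the left and -1.79 on the right, and A2M at -3.64 and 2.13.

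Finally, the genes whose log2 CPM followed each called member most closely over the 18 libraries were listed as a description. The libraries share 6 groups, so the 18 points are not independent. IL11 was followed by PODXL (r = 0.998), MAPKAPK3 (r = 0.997) and MLKL (r = 0.996), of which PODXL encodes a surface sialomucin and MLKL the effector of necroptosis. OSMR was followed by RAB31 (r = 0.994), GEM (r = 0.993) and EFR3B (r = 0.992), and IL11 and OSMR had r = 0.928 with each other. For LIF the list was SMOC1 (r = 0.985), KANK2 (r = 0.983) and ARHGEF4 (r = 0.981). CLCF1 was closest to CDH13 (r = 0.967), PELO (r = 0.961) and PITRM1 (r = 0.951). LIFR was closest to BHLHE40 (r = 0.974), NPTX2 (r = 0.973) and TIMP1 (r = 0.966), and IL6R to MON1B (r = 0.952), KDM1B (r = 0.944) and MAP3K1 (r = 0.939). IL6ST and IL6 had looser followers, led by KCNJ2 (r = 0.873) and ZNF784 (r = 0.912).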

How the data were processed

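RNA-seq counts of A375 cells in 18 libraries (6 groups of 3) were analysed. The authors deposited a table of raw, unnormalized read counts per gene; HISAT2, HTSeq and genome build hg38 are named in the submitters' processing notes, while tool versions, counting annotation and strand option were not given in the sources used here. All identifiers name genes, and symbols and coordinates came from GENCODE 29 (hg38) by identifier. With the strand setting unknown, reads of a gene and its antisense partner cannot be told apart. LIF-AS2, LIFR-AS1, IL6R-AS1, LIF-AS1 and IL6-AS1 had at most 34, 63, 8, 8 and 9 counts in any library. Coding genes on the opposite strand overlap IL6 (STEAP1B, 1734 to 2616 counts), CLCF1 (RAD9A, 397 to 668) and OSMR (RICTOR, 4083 to 5630) without a shared exonic base. In knockout against control RAD9A was lower, as was CLCF1 (-0.48, adjusted p = 1.17e-07, edgeR, for RAD9A). STEAP1B and RICTOR were not called there. The part of such reads in the member counts was not tested.

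Counts were fitted in R 4.3.3 with edgeR 4.0.16 (TMM scaling, filterByExpr, robust quasi-likelihood F tests, 1 model of 6 group means with 12 residual degrees of freedom), adjusted by Benjamini-Hochberg over 21060 genes and called at an adjusted p under 0.05. SE is the log2 fold change divided by the square root of F. The fit was tested on simulated counts first, with few genes changed, evenly up and down, and the same spread for every gene. That simulation cannot check the scaling where many genes change, nor genes with low and uneven counts such as IL6. Alternatives were RLE and library-size scaling, 2 filters, DESeq2 1.42.0, fits of the compared groups alone, a block for replicate number and each library left out. The labels do not say that libraries came from separate cultures, so p-values measure only how these samples spread, and that spread may be technical. Floors of 3 counts cover counting error only and correspond to 0.0376 to 0.0512 CPM per library. Named genes were the 9 members, up to 4 called pathway genes per role by lowest adjusted p in knockout against control, and the 3 closest protein-coding genes to each called member. Some genes of the pathway and marker lists are not reported here and were left out of list counts and sums. The members, lists and tests were chosen with earlier results of these data known.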

Additional observations from a re-analysis of the deposited data

Results flagged for a closer look

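For 6 of the 9 genes the log2 change with SOX10 differed between knockout cells (mean of guides) and control cells by the interaction test in edgeR over all 18 libraries, as did 33.3% of all genes tested. More negative differences were found for IL6R (-0.041 in knockout and 1.40 in control cells, difference -1.45, adjusted p = 4.04e-22), OSMR (-0.84 in knockout and 0.082 in control cells, difference -0.92, adjusted p = 1.14e-22), LIFR (-0.74 in knockout and 0.057 in control cells, difference -0.80, adjusted p = 4.91e-18) and IL11 (-2.24 in knockout and -1.59 in control cells, difference -0.65, adjusted p = 9.67e-12). Positive differences were found for IL11RA (1.28 in knockout and 0.56 in control cells, difference 0.72, adjusted p = 1.52e-04) and LIF (-0.56 in knockout and -0.93 in control cells, difference 0.36, adjusted p = 3.13e-05). IL6R rose with SOX10 in control cells without a called change in knockout cells, and OSMR fell in knockout cells while it was slightly higher in control cells. SOX10 RNA rose more in both knockout lines than in control cells, so the size of its rise and the response to it cannot be told apart. Groups of 3 libraries were not screened for single outlying libraries.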

How the results depend on the processing

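Over 7 other settings and 18 left-out libraries, 2399 of 2453 fold changes of the 9 genes kept their direction and side of the threshold, 32 no longer passed, 17 newly passed and 5 reversed. All 5 reversals were IL6ST with library-size scaling: 0.057 in knockout against control, 0.11 for guide 1, 0.0086 for guide 2, 0.022 in knockout with SOX10 against control and 0.11 for knockout within SOX10 cells. That scaling moved the all-gene median by 0.156, 0.148, 0.163, 0.147 and 0.143 (log2) in those comparisons. It gave 9112 genes higher and 3545 lower in knockout against control, where TMM gave 6025 and 6205; in the other 4 the splits were 8382 and 3103, 8874 and 3478, 9156 and 3295, and 9144 and 3126, where TMM gave 5518 and 5568, 5867 and 5908, 6326 and 5866, and 5946 and 5633. It left 1 member lower in knockout against control and 1 with guide 2, where TMM gave 2 in each. In guide 2 against guide 1, 2 members were lower with DESeq2 and 2 with a mean CPM of at least 1, where the chosen fit gave 1, and leaving out single libraries gave 1 to 2; the added member was LIF. Depth limited IL6 alone among the 9 genes: it had at most 25 counts in any library. The cause of these changes was not tested.

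Replicate numbers were not taken to pair the samples, and the checks that follow do not settle whether they do. Of 45 same-numbered pairs across groups none correlated over 0.1 (range -0.0295 to 0.0711). In 45 of 90 cases, however, a library correlated best with its own number, where 30 are expected with no pairing. With the replicate block, 12322 genes were called in knockout against control, beside 12230 without it, 2036 beside 1841 in guide 2 against guide 1, and no count of members moved. Fitting the compared groups alone was not run for the interaction, which uses all 6 groups.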

Other observations

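An intron of IL6ST holds a processed pseudogene of 78 bases on the opposite strand, ENSG00000264281 (chr5:55944656-55944733, hg38), which shares no exonic base with IL6ST and was counted 13341 to 19026 times per library. It averaged 211 ± 8.11 CPM in guide 1 and 222 ± 6.56 CPM in guide 2 knockout cells, against 214 ± 14.2 CPM in control cells (SD, n = 3 each), and was not called in that comparison (0.018, adjusted p = 0.784, edgeR). Whether these reads arise at this copy or at another copy of the same sequence was not tested.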
